A study of Mus musculus with 6 samples.

Results

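The NF-kB transcription factor genes Rel, Rela, Relb and Nfkb2 and the regulator gene Bcl3 were examined in transduced mouse B cells. They are the genes for which the platform annotation gives exactly 1 of these symbols to a feature, chosen for their role as subunits of the canonical and alternative pathways. Each of the 5 genes had 1 feature, so 5 of the 21542 features with exactly 1 gene symbol were described, within a table of 24743. The cells were mature splenic B cells of the mouse that had been activated and then spin-infected with a retrovirus whose marker is EGFP. They spent 36 hours in mitogen and 24 hours without it before green cells were sorted. The virus carried MYD88 bearing the L265P substitution in the group MYD88_L265P, IKK bearing K171E in the group IKK_K171E, and an empty GFP vector in the controls, EV. The labels describe 2 biological replicates a group, each on 1 Affymetrix mouse ST 1.0 array. They do not name the IKK subunit, the strain, the age of the mice or whether the replicates came from separate mice, so p-values measure the spread between these arrays, which may be technical. All 3 groups share the activation, the viral infection and the sort, so untreated B cells were not part of the comparisons.

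NF-kB factors are dimers of proteins that share the Rel homology domain. RelA, c-Rel (encoded by Rel) and RelB carry activation domains, and Nfkb2 encodes p100, a precursor that holds RelB in the cytoplasm until it is cut to p52. In the canonical pathway, fed in B cells by Toll-like receptors through MYD88 and by the B cell receptor, IKK marks the IkB inhibitors for destruction and releases RelA and c-Rel. In the alternative pathway, fed by CD40 and the BAFF receptor, the kinase NIK drives processing of p100, so that RelB with p52 enters the nucleus. Bcl3 is an atypical IkB protein that binds p50 and p52 dimers in the nucleus. The genes of several of these proteins are themselves NF-kB targets, and the arrays report their RNA, not protein, processing or location.

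RefSeq promoter windows (build GRCm38.p6, 250 bases before to 50 after a start site) were found for 4 of the 5 genes. They were searched on both strands for the kB consensus, the general NF-kB binding pattern, which 8.46% of 32817 such windows of mouse genes held. The consensus occurred in windows of Rel, Nfkb2 and Bcl3, and not in that of Rela. Shown here are windows of the genes that passed the test in a comparison, Nfkb2 (the first 2 of its 3 windows) and Rel, with matches to the consensus in capitals.
Nfkb2, chr19:46304487-46304786, + strand: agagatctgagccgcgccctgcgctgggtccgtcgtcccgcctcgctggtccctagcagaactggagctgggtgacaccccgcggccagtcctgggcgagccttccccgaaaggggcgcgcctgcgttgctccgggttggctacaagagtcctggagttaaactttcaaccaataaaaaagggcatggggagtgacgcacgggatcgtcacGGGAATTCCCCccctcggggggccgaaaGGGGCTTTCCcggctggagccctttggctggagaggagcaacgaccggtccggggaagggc
Nfkb2, chr19:46305445-46305744, + strand: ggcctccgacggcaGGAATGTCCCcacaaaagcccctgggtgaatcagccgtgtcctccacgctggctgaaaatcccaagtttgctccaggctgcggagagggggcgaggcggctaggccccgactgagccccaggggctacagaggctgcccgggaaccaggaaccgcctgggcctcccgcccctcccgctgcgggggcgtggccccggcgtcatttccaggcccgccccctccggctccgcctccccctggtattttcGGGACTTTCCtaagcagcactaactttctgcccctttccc
Rel, chr11:23770920-23771219, - strand: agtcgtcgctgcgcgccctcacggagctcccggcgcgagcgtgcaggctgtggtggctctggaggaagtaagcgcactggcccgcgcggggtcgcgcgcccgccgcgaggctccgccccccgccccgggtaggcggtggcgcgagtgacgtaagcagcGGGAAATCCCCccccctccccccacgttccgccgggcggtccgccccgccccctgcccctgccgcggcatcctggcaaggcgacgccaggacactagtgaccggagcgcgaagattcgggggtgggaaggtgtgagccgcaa
In the first Nfkb2 window, 2 matches on opposite strands overlap in the run that begins 39 bases before the start, and another begins 11 bases before it. In the second, GGGACTTTCC begins 10 bases after the start, and another match begins 236 bases before it. The Rel run holds 2 overlapping matches and begins 92 bases before the start, and in Bcl3 the match GGGAAGTCCC begins 2 bases after the start. A match describes these letters only, and binding was not measured.

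The deposited values are log2 expression, on which a difference of 1 is a 2-fold change, and a level is compared between groups only within a feature. Array medians over all features ran from 8.03 to 8.13. Replicate arrays correlated across features at 0.989 to 0.995, pairs between groups at 0.967 to 0.990, and the number of arrays limits the precision. The Myd88 feature read 12.25 and 12.31 in MYD88_L265P against 9.30 and 9.35 in EV, and Ikbkb read 11.35 and 10.68 in IKK_K171E against 9.98 and 10.22 in EV. Differences were tested with limma over all 21542 features and called at a Benjamini-Hochberg adjusted p below 0.05. Both constructs were set against the same 2 EV arrays, so those comparisons are not independent. B cell markers were measured for 9 of 10 genes; no feature is listed at 0, and the table has no detection calls, so presence was not separated from background.

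In MYD88_L265P, 1 of the 5 genes passed the test against EV: Rel, the c-Rel gene, fell, and Rela, Relb, Nfkb2 and Bcl3 did not pass. Of all features, 16.6% were called in that comparison, 9.32% higher and 7.33% lower, and 38.7% had an unadjusted p below 0.05. In IKK_K171E, 0 of the 5 passed against EV by limma, and 1 of 5, Nfkb2, had an unadjusted p below 0.05, as had 17.1% of all features. There 1.37% of all features were called, 0.956% higher and 0.413% lower. Between the constructs, 1 of 5 passed: Nfkb2 was lower in MYD88_L265P than in IKK_K171E, and 5 of 5 had an unadjusted p below 0.05, as had 19.6% of all features. That comparison called 1.75% of all features, 0.873% higher and 0.877% lower in MYD88_L265P. The arrays of the groups did not overlap for 4 of the 5 genes in MYD88_L265P against EV (71.1% of all features), for 3 of 5 in IKK_K171E against EV (46% of features), and for 5 of 5 between the constructs (57% of features). The median log2 fold change of the 5 genes was -0.17 in MYD88_L265P over EV, where the median of all features was -0.11. It was 0.14 in IKK_K171E over EV against -0.04 for all features, and -0.36 in MYD88_L265P over IKK_K171E against -0.05. These medians of 5 moved with single arrays: that of MYD88_L265P over EV was -0.09 without MYD88_L265P replicate 2, and -0.08 under a common median. That of IKK_K171E over EV was 0.22 without IKK_K171E replicate 1 and 0.05 without replicate 2, and that between the constructs was -0.54 and -0.17 without the same arrays.

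**Figure D1:**
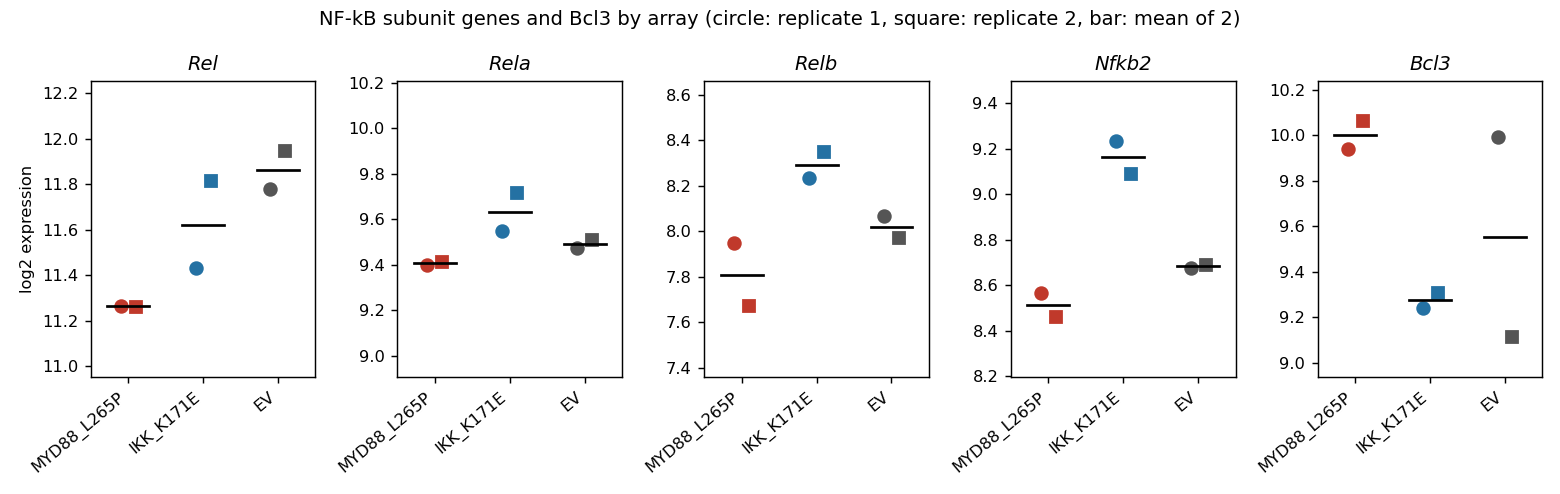
Log2 expression of each gene (vertical axis, every panel spanning the same width) on the 6 arrays by group, with circles for replicate 1, squares for replicate 2 and bars for the mean of 2. Nfkb2 stands highest in both IKK_K171E arrays, Rel lowest in both MYD88_L265P arrays, and the EV arrays of Bcl3 lie at 9.99 and 9.11.

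Rel encodes c-Rel, the canonical subunit most tied to lymphocyte proliferation and survival. It read 11.26 and 11.26 in MYD88_L265P, 11.43 and 11.81 in IKK_K171E, and 11.78 and 11.95 in EV. Both MYD88_L265P arrays lay below all the others, while IKK_K171E and EV overlapped. The log2 fold change in MYD88_L265P over EV was -0.60 (SE 0.14, 95% interval -0.92 to -0.28, limma adjusted p = 0.0292), a level 0.66 times that of EV. A larger change in either direction was seen in 9.04% of features. In IKK_K171E over EV it was -0.24 (SE 0.14, interval -0.56 to 0.08, adjusted p = 0.430). The direct difference, MYD88_L265P minus IKK_K171E, was -0.36 (interval -0.68 to -0.04, adjusted p = 0.222), so the constructs were not shown to differ. The Rel call ended without EV replicate 2 (adjusted p = 0.111), without MYD88_L265P replicate 1 (0.133) and without MYD88_L265P replicate 2 (0.140), with fold changes of -0.52, -0.60 and -0.60.

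The summed signal of the B cell markers had the order of the group means of Rel. Its log2 was 14.46 and 14.48 in MYD88_L265P, 14.92 and 14.94 in IKK_K171E, and 15.09 and 15.23 in EV. Of the 9 measured markers, 6 were lower in MYD88_L265P than in EV, among them Fcer2a (-1.81), Cr2 (-1.31), Cd37 (-1.06) and Cd22 (-0.78), and 0 were higher (also 0 at an unadjusted p below 0.05). The means of 6 of the 9 followed the order MYD88_L265P below IKK_K171E below EV, which was not counted over all features. Fcer2a and Cr2 did not, with 1.08 and 0.02 in IKK_K171E over EV (neither called), nor did Cd79a, at 10.64 in MYD88_L265P, 10.62 in IKK_K171E and 11.06 in EV. Plasma cell markers stood at 13.37 and 13.04 in MYD88_L265P, 12.29 and 11.58 in IKK_K171E, and 11.86 and 12.19 in EV. Of these 7 markers, 3 were called higher in MYD88_L265P than in EV, beside 9.32% of all features: Prdm1 (2.47), Xbp1 (1.26) and Jchain (2.22). The means of 5 of the 7 were above EV in MYD88_L265P. Those of Sdc1 (7.71 against 7.83 in EV) and Tnfrsf17 (7.21 against 7.33) were below it. In bulk RNA, fewer cells of a type and less RNA per cell cannot be told apart, and the part of these markers in the Rel result was not tested.

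Rela encodes RelA (p65), the broadly expressed canonical subunit. It read 9.40 and 9.41 in MYD88_L265P, 9.55 and 9.72 in IKK_K171E, and 9.47 and 9.51 in EV. The groups did not overlap, and the whole of the 6 arrays spanned 0.31 log2 units, the narrowest span of the 5 genes. The fold changes were -0.08 in MYD88_L265P over EV (SE 0.09, interval -0.30 to 0.14, limma adjusted p = 0.512) and 0.14 in IKK_K171E over EV (interval -0.08 to 0.36, adjusted p = 0.511). MYD88_L265P minus IKK_K171E was -0.22 (interval -0.44 to -0.0030, adjusted p = 0.250). With arrays shifted to a common median, the MYD88_L265P value turned to 0.0034, so no direction is given for it.

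Relb encodes the subunit of the alternative pathway that pairs with p52. It read 7.95 and 7.67 in MYD88_L265P, 8.23 and 8.35 in IKK_K171E, and 8.07 and 7.97 in EV. On each MYD88_L265P and EV array it lay below that array's own median (8.03 to 8.13). Such signal was not separated from background. Both IKK_K171E arrays were above and both MYD88_L265P arrays below the EV arrays, the nearest MYD88_L265P and EV arrays by 0.024. The fold change was -0.21 in MYD88_L265P over EV (SE 0.12, limma adjusted p = 0.215) and 0.27 in IKK_K171E over EV (SE 0.12, interval -0.0032 to 0.55, adjusted p = 0.298). MYD88_L265P minus IKK_K171E was -0.48 (interval -0.76 to -0.21, adjusted p = 0.102), which missed the threshold over all features.

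Nfkb2, the gene of p100 and p52, had the lowest adjusted p of the 5 between the constructs. It read 8.57 and 8.46 in MYD88_L265P, 9.24 and 9.09 in IKK_K171E, and 8.68 and 8.69 in EV. The nearest IKK_K171E and EV arrays were 0.40 apart, with IKK_K171E higher, and the nearest MYD88_L265P and EV arrays 0.11 apart, with MYD88_L265P lower. MYD88_L265P minus IKK_K171E was -0.65 (SE 0.09, interval -0.87 to -0.43, limma adjusted p = 0.0254), a level in MYD88_L265P 0.64 times that in IKK_K171E. A larger difference in either direction was seen in 2.64% of features. In IKK_K171E over EV the value was 0.48 (SE 0.09, interval 0.26 to 0.70, adjusted p = 0.0642), which missed the threshold and passed it under quantile normalization (adjusted p = 0.0425). In MYD88_L265P over EV it was -0.17 (SE 0.09, interval -0.39 to 0.05, adjusted p = 0.218). The call between the constructs ended when any of their arrays was left out: adjusted p = 0.0762 and 0.113 without IKK_K171E replicates 1 and 2, and 0.103 and 0.240 without MYD88_L265P replicates 1 and 2.

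Rela, Relb and Nfkb2 thus had all 6 arrays in 1 order, MYD88_L265P below EV below IKK_K171E, an order held by 2.21% of all features. It was read from the values of these genes, and other orders were not counted, so the share is a description. Under quantile normalization and under a common median, 1 of the 5 genes, Nfkb2, had this order, which was then counted for 1.29% and 1.34% of features. The summed signals of markers of 2 other cell types took the same order. The summed signal of 14 monocyte and macrophage markers was 14.54 and 14.44 in MYD88_L265P, 15.08 and 14.98 in IKK_K171E, and 14.68 and 14.80 in EV. In MYD88_L265P against IKK_K171E, 2 of the 14 were called lower, Tyrobp (-1.05) and Ccr2 (-0.87), and 0 higher. Of all features, 0.877% were called lower there and 0.873% higher. All 14 fold changes of that comparison were negative, the highest -0.10. An unadjusted p below 0.05 was found for 10 of them, as for 19.6% of all features. In IKK_K171E against EV, Csf1r (a log2 fold change of 1.22) and Fcer1g were called higher and Adgre1 (-1.17) lower. The mean of Fcer1g was 10.48 in IKK_K171E and 8.98 in EV. Of all features, 0.956% were called higher in that comparison and 0.413% lower. By marker, the means of 5 of the 14 had the order MYD88_L265P below EV below IKK_K171E. For means, this order was not counted over all features. Those of 6 (Lyz2, Csf1r, Itgam, Fcgr1, Fcgr3 and Fcer1g) were above EV in MYD88_L265P, Fcer1g with a call (1.06, limma adjusted p = 0.00425). In that comparison 1 of the 14 was called higher and 2 lower, beside 9.32% and 7.33% of all features. Of 8 T cell markers, 2 were called lower in MYD88_L265P than in IKK_K171E, Cd3g (-1.14) and Cd3e (-0.61), beside 0.877% of all features. All 8 fold changes of that comparison were negative, the highest -0.07. An unadjusted p below 0.05 was found for 7 of them, as for 19.6% of all features. The means of 8 of 8 had the order MYD88_L265P below EV below IKK_K171E. Their summed signal was 10.83 and 10.62 in MYD88_L265P, 11.35 and 11.14 in IKK_K171E, and 11.00 and 11.08 in EV. Much of the T cell list was of low signal. The means of Cd3d, Cd4, Cd8b1 and Cd28 lay below the array medians (8.03 to 8.13) in every group. That of Cd3g was 7.10 in MYD88_L265P and 8.23 in IKK_K171E. Such signal was not separated from background, and the part of these markers in the order of the NF-kB genes was not tested.

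Bcl3 encodes a nuclear IkB protein and was first found at a translocation in human B cell leukaemia. It read 9.94 and 10.06 in MYD88_L265P, 9.24 and 9.30 in IKK_K171E, and 9.99 and 9.11 in EV. The EV arrays differed by more than any of the fold changes of this gene and covered the IKK_K171E arrays whole. MYD88_L265P and IKK_K171E did not overlap, with a difference of 0.73 (SE 0.25, interval 0.14 to 1.31, limma adjusted p = 0.192). A fit of the 4 arrays of the constructs alone, whose spread leaves out EV, gave the same 0.73 with SE 0.10 and adjusted p = 0.0177. Over EV the fold changes were 0.45 in MYD88_L265P (interval -0.14 to 1.03, adjusted p = 0.216) and -0.28 in IKK_K171E (interval -0.87 to 0.31, adjusted p = 0.626). Without EV replicate 1 they were 0.89 (adjusted p = 0.00642) and 0.16, and without EV replicate 2 they were 0.0082 and -0.72, so these directions rest on single control arrays.

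**Figure D2:**
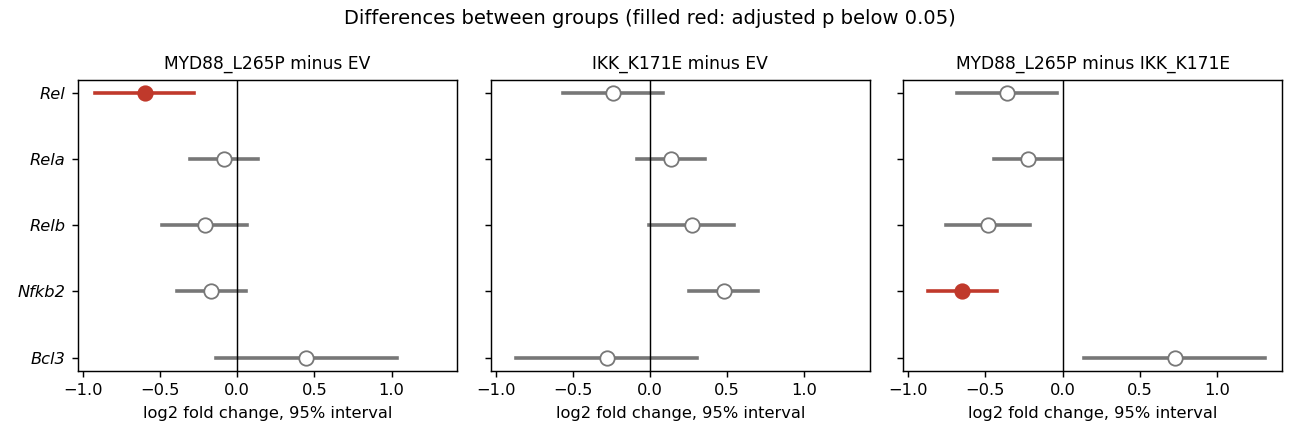
Log2 fold changes (horizontal axis) of the 5 genes in the 3 comparisons, with the 95% interval of the fit as a line and filled red points at an adjusted p below 0.05. Rel in MYD88_L265P minus EV (-0.60) and Nfkb2 in MYD88_L265P minus IKK_K171E (-0.65) are filled, and the widest intervals are those of Bcl3.

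Profiles of the 5 genes were set beside each other by the root mean square difference of their 6 values, each centred on its own mean. The closest pair was Relb and Nfkb2, the subunits of the alternative pathway (0.13 log2 units), followed by Rela and Relb (0.14). The farthest was Nfkb2 and Bcl3 (0.63). By the same measure, the genes most like Nfkb2 among 19817 were Zmiz1 (0.04), a transcriptional coregulator, H2-M2 (0.06), Dglucy (0.07), the inflammasome sensor gene Nlrp3 (0.07) and the metalloproteinase inhibitor gene Timp3 (0.07). Nfkb2 itself varied by 0.28 about its mean. Nlrp3 read 6.75 and 6.83 in MYD88_L265P, 7.54 and 7.43 in IKK_K171E, and 6.94 and 6.88 in EV. Those most like Rel were 6330409D20Rik, Fuca1, a lysosomal fucosidase gene, Tas2r119, the RAP exchange factor gene Rapgef2 and Csnka2ip, each at 0.04. Fuca1 read 10.04 and 10.05 in MYD88_L265P, 10.28 and 10.57 in IKK_K171E, and 10.57 and 10.82 in EV. Nlrp3, H2-M2, Tas2r119 and Csnka2ip lay below the array medians (8.03 to 8.13) on all 6 arrays. Relb lay below the median of each MYD88_L265P and EV array. Such signal was not separated from background. Likeness over 6 arrays is a description, and genes of these arrays share the arrays' own deviations.

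**Figure D3:**
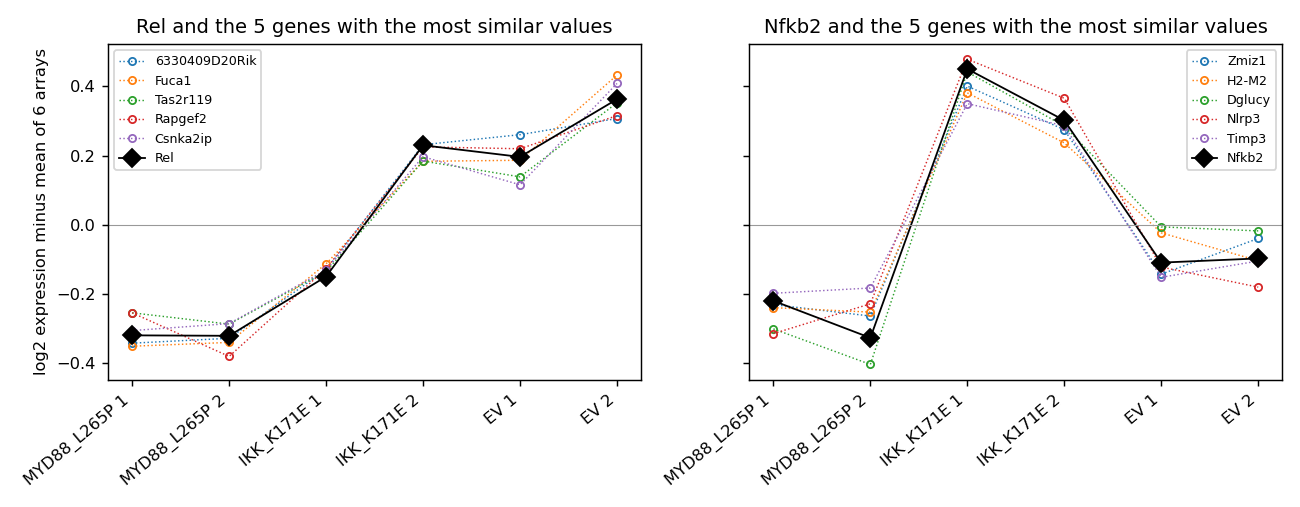
Log2 expression minus the gene's mean over 6 arrays (vertical axis) for Rel and Nfkb2 (black diamonds) and the 5 genes closest to each (open circles), by array. Rel and its neighbours are lowest in both MYD88_L265P arrays and low in IKK_K171E replicate 1, and Nfkb2 and its neighbours are highest in the IKK_K171E arrays.

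Around these subunits, 67 of 73 listed pathway genes were measured. Against EV, 8 rose and 13 fell in MYD88_L265P, where 9.32% of all features were called higher and 7.33% lower. In IKK_K171E against EV, 5 rose and 1 fell, beside 0.956% and 0.413% of all features. In MYD88_L265P against IKK_K171E, 4 were higher and 14 lower, beside 0.873% and 0.877%. The 14 included Ikbkb (-1.33), an IKK subunit gene. In IKK_K171E over EV, Ikbkb had 0.91 and was not called (limma adjusted p = 0.0848). The labels do not name the IKK subunit that the virus carried, and the part of viral RNA in the Ikbkb values was not tested. The same shares of all features stand beside the counts of each list below. The medians of the 67 genes were -0.05, 0.12 and -0.08, beside -0.11, -0.04 and -0.05 for all features. Under a common median the MYD88_L265P counts against EV became 11 higher and 10 lower. They became 4 and 4 without MYD88_L265P replicate 1 and 3 and 0 without replicate 2, and 6 and 9 without EV replicate 2. The IKK_K171E counts against EV became 0 and 0 without IKK_K171E replicate 1, where limma called 0 of all features and 2355 had an unadjusted p below 0.05. They became 1 and 0 without EV replicate 2 or without either MYD88_L265P array, 6 and 0 without EV replicate 1, 2 and 0 with all features of the table tested, and 1 and 0 with the 4 arrays of these groups. Between the constructs the counts became 2 higher and 1 lower without IKK_K171E replicate 1, 1 and 2 without its replicate 2, 2 and 2 without either MYD88_L265P array, and 3 and 9 with all features tested.

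**Figure D4:**
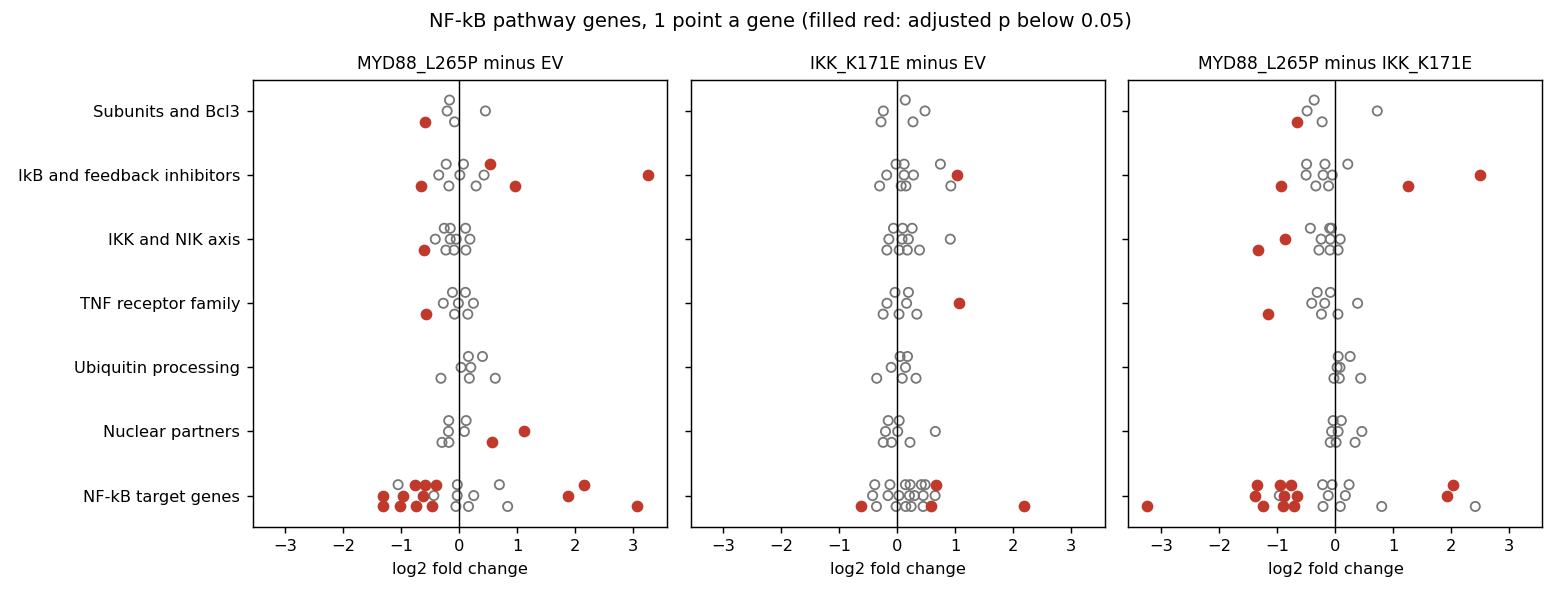
Log2 fold changes (horizontal axis) of the subunits and of 6 lists of NF-kB pathway genes in the 3 comparisons, 1 point a gene, filled red at an adjusted p below 0.05 (points are offset vertically for legibility). Tnip3 lies farthest to the right in MYD88_L265P minus EV (3.25), and Ccl22 farthest to the left in MYD88_L265P minus IKK_K171E (-3.24).

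Of 11 IkB and feedback inhibitor genes, 3 rose and 1 fell in MYD88_L265P against EV. Tnip3, an A20-binding inhibitor gene, rose by 3.25, Nfkbiz, which encodes the nuclear IkB protein IkB-zeta, by 0.96, and Tnfaip3, the A20 gene, by 0.53. This Tnfaip3 call ended under quantile normalization (limma adjusted p = 0.0594) and with all features tested (0.0504). With 1 EV or MYD88_L265P array left out, the Tnfaip3 value ran from 0.44 to 0.63, and the call ended each time. The Nfkbiz call ended without EV replicate 1 (0.76), MYD88_L265P replicate 1 (1.21) or MYD88_L265P replicate 2 (0.71). Nfkbie, the gene of IkB-epsilon, which binds RelA and c-Rel in the cytoplasm, read 8.51 and 8.37 in MYD88_L265P, 9.46 and 9.30 in IKK_K171E, and 9.02 and 9.18 in EV. It fell in MYD88_L265P against EV (-0.66, SE 0.11, limma adjusted p = 0.0122) and against IKK_K171E (-0.94, adjusted p = 0.0152), in the same direction as Nfkb2. In IKK_K171E against EV, Tnfaip3 rose by 1.02 and was the 1 member of this list called. Nfkbia, which encodes IkB-alpha, had fold changes of 0.43 in MYD88_L265P (adjusted p = 0.113) and 0.92 in IKK_K171E (adjusted p = 0.0554) over EV. In MYD88_L265P over EV the list counted 1 higher and 0 lower without either MYD88_L265P array, 2 and 0 without EV replicate 2, and 1 and 2 without EV replicate 1. The Nfkbie call against EV ended without EV replicate 2 or either MYD88_L265P array, and that against IKK_K171E without any array of the constructs. The Tnfaip3 call in IKK_K171E ended without EV replicate 2, IKK_K171E replicate 1 or either MYD88_L265P array, and in the fit of 2 groups only.

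Upstream, 11 of 14 genes of the IKK and NIK axis were measured, without Chuk, Traf3 and Ripk1. In MYD88_L265P against EV, 1 fell. This was Birc2, the gene of the ubiquitin ligase cIAP1 that helps degrade NIK, at -0.60 (SE 0.11, limma adjusted p = 0.0174), and it was also lower than in IKK_K171E (-0.86, adjusted p = 0.0196). Map3k14, the NIK gene, read 8.24 and 8.27 in MYD88_L265P, 8.15 and 8.26 in IKK_K171E, and 8.37 and 8.33 in EV, with fold changes of -0.09 and -0.14 over EV that did not pass. Ikbkg, the regulatory IKK subunit gene, had -0.26 in MYD88_L265P and -0.18 in IKK_K171E over EV, and did not pass either. Among 8 receptor genes of the TNF receptor family, Cd40 read 9.44 and 9.52 in MYD88_L265P, 10.65 and 10.60 in IKK_K171E, and 9.36 and 9.76 in EV. It rose in IKK_K171E over EV (1.06, adjusted p = 0.0244) and was lower in MYD88_L265P than in IKK_K171E (-1.15, adjusted p = 0.0152). Tnfrsf13c, the BAFF receptor gene, fell in MYD88_L265P against EV (-0.58, adjusted p = 0.0180), and Ltbr, the lymphotoxin beta receptor gene, had -0.28 there (adjusted p = 0.0697). The Birc2 call against EV ended without either MYD88_L265P array (adjusted p = 0.0760 and 0.119), and that of Tnfrsf13c without either of them or EV replicate 1. The Cd40 call in IKK_K171E over EV ended without IKK_K171E replicate 1 (adjusted p = 0.180), without either MYD88_L265P array and with 2 groups only. The Birc2 and Cd40 calls between the constructs ended without any 1 of the 4 construct arrays.

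Of 7 measured genes of the ubiquitin machinery that marks p100 for cutting and IkB for destruction, limma called 0 in each of the 3 comparisons. In MYD88_L265P over EV other settings called some: 2 higher under a common median, an intensity trend or with 2 groups only (so also without either IKK_K171E array), 1 higher with the replicate block or without EV replicate 1, 1 lower under quantile normalization, and 2 higher and 1 lower without features of low signal. Unadjusted p-values below 0.05, a threshold that 38.7% of all features met in MYD88_L265P over EV, numbered 2 higher and 1 lower there, 1 higher and 1 lower in IKK_K171E over EV and 2 higher and 0 lower in MYD88_L265P over IKK_K171E. Rbx1, a ring subunit of cullin ligases, came nearest at 0.62 in MYD88_L265P over EV (adjusted p = 0.0501, and 0.0224 with the replicate block). Of 8 nuclear partners, 2 rose in MYD88_L265P against EV, both named for repression or activation of NF-kB: Nkrf, an NF-kB repressing factor gene, by 1.12 (adjusted p = 0.00468) and Nkap by 0.56 (adjusted p = 0.0299). The count was 1 without EV replicate 2 or MYD88_L265P replicate 1, and 0 without MYD88_L265P replicate 2. The other measured partners, among them the acetyltransferase genes Ep300 and Crebbp (both -0.18 over EV), did not pass in that comparison.

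The fold changes of the 22 target genes in MYD88_L265P over EV ran from -1.32 to 3.07, and those of the 5 genes from -0.60 to 0.45. A larger list can reach farther by its size alone, and the spreads were not tested. In MYD88_L265P against EV, 3 rose, Il6 (3.07), Ccl3 (2.15) and Il10 (1.87). In that comparison 10 fell, the largest being Irf1 and Cd86 (both -1.32), Lta (-1.03) and Ltb (-0.97). This Ltb call ended under a common median (limma adjusted p = 0.0585), with all features tested (0.0517) and with 2 groups only (0.0623). In IKK_K171E against EV, the chemokine gene Ccl22 (2.18), the CD28 ligand gene Cd80 (0.67) and the death receptor gene Fas (0.58) rose, and Ccr7 (-0.63), a receptor for lymph node homing, fell. In MYD88_L265P against IKK_K171E, 10 were lower and 2 higher. Ccl22 read 9.83 and 8.65 in MYD88_L265P, 12.78 and 12.18 in IKK_K171E, and 10.50 and 10.09 in EV, a difference between the constructs of -3.24 (SE 0.37, limma adjusted p = 0.0152). Also lower than in IKK_K171E were Ltb (-1.38), Fas (-1.34), Lta (-1.25), Tnf (-0.95), Irf1 (-0.90), Ebi3 (-0.89), Traf1 (-0.77), Cd80 (-0.71) and Icam1 (-0.65). Il10 (2.03) and Ccl3 (1.94) were higher. Il6 read 9.44 and 9.28 in MYD88_L265P, 7.22 and 6.67 in IKK_K171E, and 7.19 and 5.39 in EV. Its EV arrays thus lay apart and below the array medians. Its difference between the constructs (2.42) was not called in the fit of 6 arrays. It was called with the 4 construct arrays alone (limma adjusted p = 0.00459). Without MYD88_L265P replicate 2 the counts against EV were 2 higher and 0 lower, and without replicate 1 they were 2 and 4. Between the constructs, leaving out either IKK_K171E array left 1 higher and 1 lower, and leaving out either MYD88_L265P array left 1 and 2. In IKK_K171E against EV they were 0 and 0 without EV replicate 2, without IKK_K171E replicate 1 and with all features tested.

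**Figure D5:**
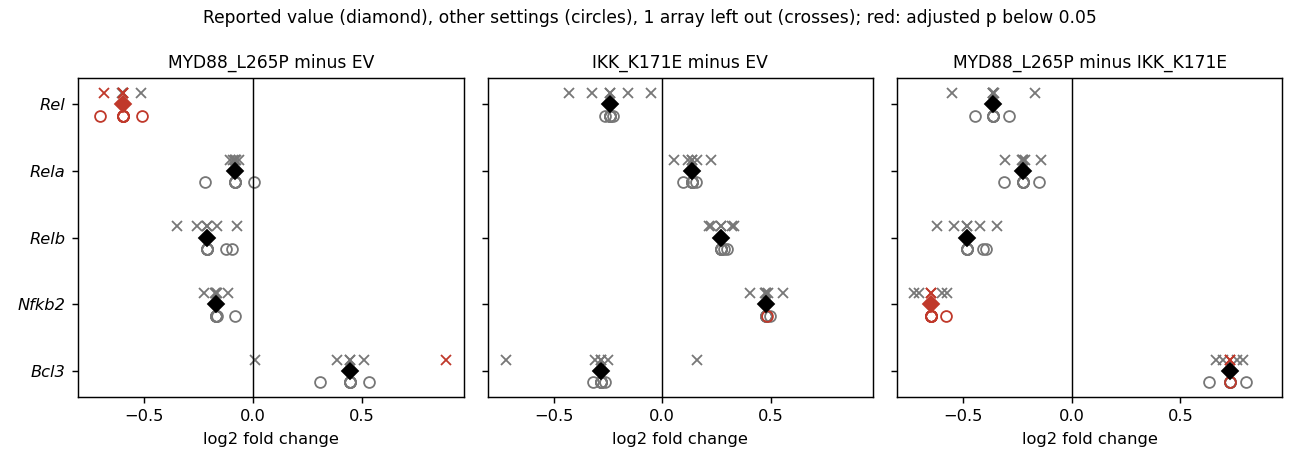
Log2 fold change (horizontal axis) of the 5 genes as reported (diamonds), under 7 other settings (circles) and with each array left out in turn (crosses), red at an adjusted p below 0.05. The Bcl3 values over EV range from 0.0082 to 0.89 in MYD88_L265P and from -0.72 to 0.16 in IKK_K171E, and Nfkb2 stays between -0.72 and -0.57 in MYD88_L265P minus IKK_K171E.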

How the data were processed

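The authors deposited log2 expression for each array feature. Per the labels' design text, quality control, normalization and differential expression used limma, and per the submitters' processing notes oligo was also used. Background correction, summarization and genome build are not given in the sources used here. Arrays were grouped by the labels' descriptions, which number the replicates 1 and 2. Group means of all 6 arrays were fitted together (limma 3.58.1, R 4.3.3), with no filter or scaling. Moderated statistics of the contrasts used 3 residual plus 4.17 prior degrees of freedom. Two-sided p-values were Benjamini-Hochberg adjusted over 21542 features with exactly 1 symbol; 1522 features with several symbols and 1679 with none were left out. Intervals are moderated 95% intervals. A listed gene was represented by its brightest feature. Named genes were the 5 genes, listed pathway genes that were called or nearest in role, and the 5 genes nearest to each called one. The members and lists were chosen with earlier results of these data known, so counts over them are descriptions. The procedure was tested on simulated data. Alternatives were a replicate block, quantile normalization, a common median, an intensity trend, features of lowest signal left out, all features, 2 groups only, and each array left out.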

Additional observations from a re-analysis of the deposited data

Results flagged for a closer look

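Nfkb2 moved differently under the 2 constructs: its log2 fold change over EV was -0.17 in MYD88_L265P and 0.48 in IKK_K171E. The direct test of that difference gave -0.65 (SE 0.09, limma adjusted p = 0.0254), and it missed the threshold when any 1 of the 4 construct arrays was left out.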

How the results depend on the processing

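Groups of 2 arrays limit every value, and a fit with 1 array left out assumes that the lone array varies like the other groups. The Rel difference between MYD88_L265P and EV kept its call in the 7 settings that keep all arrays of these groups, and over the arrays left out ran from -0.68 to -0.52. Nfkb2 in MYD88_L265P minus IKK_K171E also kept its call in those 7 settings, and ran from -0.72 to -0.57 over the arrays left out. Nfkb2 in IKK_K171E minus EV passed under quantile normalization (0.48, adjusted p = 0.0425). Bcl3 in MYD88_L265P minus IKK_K171E passed with 2 groups only (0.73) and ran from 0.67 to 0.79 over the arrays left out. Bcl3 in MYD88_L265P minus EV ran from 0.0082 to 0.89. Beyond the effect of fewer arrays or more features, the cause of these changes was not tested. Features called ran from 191 to 3554 against 3586 in MYD88_L265P minus EV over the arrays left out, from 0 to 506 against 295 in IKK_K171E minus EV, and from 14 to 592 against 377 between the constructs. In IKK_K171E minus EV they were 626 with the replicate block, 131 with all features and 51 with 2 groups only, and between the constructs 592 with 2 groups only. The labels do not say that replicate numbers mark a shared batch or animal, and the numbers are those of the descriptions: the titles give EV replicate 1 another number than replicate 1 of the constructs. Deviations of arrays with the same description number correlated at 0.211, 0.105 and 0.144 with only 2 pairs a comparison, and the block was not used for the reported values. With arrays shifted to a common median, the share of calls that were higher was 77.7% against 56% in MYD88_L265P minus EV (2582 higher and 739 lower) and 66.4% against 49.9% in MYD88_L265P minus IKK_K171E (255 higher and 129 lower), and the median of all features in MYD88_L265P minus EV was -0.02 against -0.11. The block changed no call of the 5 genes (Rel adjusted p = 0.0167 in MYD88_L265P minus EV, Nfkb2 0.0243 between the constructs).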
